A study of Mus musculus with 30 samples.

Results

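The myostatin, activin and follistatin axis was followed through 9 genes, Fst, Fstl1, Fstl3, Mstn, Inhba, Gdf11, Acvr1b, Acvr2a and Acvr2b, taken by symbol from a table of 16025 genes. All 9 were in the table, and 8 of them were among the 12184 genes with enough counts to be tested. Mstn was the exception. Expression was measured by bulk sequencing of poly(A) RNA in myotubes of C2C12, a single mouse myoblast line labelled wildtype, which fuses into muscle-like cells in low-serum medium. Differentiated cultures received a Korean Red Ginseng preparation, D-galactose, both in turn, or vehicle, with 3 libraries in each of 10 groups that the design text calls biological replicates. Of these, 4 groups received a preparation for 12 h and then D-galactose, a sugar that the study applied to model cellular ageing, at 20 mg/mL for 24 h. These were RGW_Dgal (water extract, 100 µg/mL), SFr_Dgal (saponin fraction, 100 µg/mL), NSFr_Dgal (non-saponin fraction, 100 µg/mL) and Rb2_Dgal (the purified saponin ginsenoside Rb2, 20 µM). Dgal received D-galactose without a preparation. RGW, SFr, NSFr and Rb2 received the same doses for 12 h without D-galactose, and control received vehicle.

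Myostatin (Mstn), GDF11 (Gdf11) and activin A, a dimer of the Inhba product, are secreted ligands of the TGF-beta family. They bind the type II receptors Acvr2a and Acvr2b, which activate type I receptors such as Acvr1b, and these phosphorylate the transcription factors Smad2 and Smad3. In skeletal muscle this signal restrains growth. Follistatin (Fst) and follistatin-like 3 (Fstl3) bind activins and myostatin and keep them from their receptors, whereas Fstl1, a secreted glycoprotein with a follistatin domain, is counted here with the family for its sequence.

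Of the 9 members, 8 had an entry in the RefSeq promoter table for GRCm38.p6, and Fst is named only. The 250 bases before the start of 3 genes are shown, in the direction of transcription: Mstn, the member at the detection limit, and Fstl3 and Inhba, the members whose group means were most alike. Capitals mark the E-box CANNTG, the motif bound by myogenic factors of the MyoD family, and the SMAD box CAGAC, read as CAGAC or GTCTG to cover both strands. The E-box reads the same class of letters on both strands. In Fstl3 an E-box and a SMAD box share a base.
Mstn: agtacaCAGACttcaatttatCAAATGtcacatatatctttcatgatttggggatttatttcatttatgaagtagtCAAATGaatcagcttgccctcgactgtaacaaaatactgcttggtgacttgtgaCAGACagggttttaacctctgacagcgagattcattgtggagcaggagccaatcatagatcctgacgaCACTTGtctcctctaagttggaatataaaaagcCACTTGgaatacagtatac
Inhba: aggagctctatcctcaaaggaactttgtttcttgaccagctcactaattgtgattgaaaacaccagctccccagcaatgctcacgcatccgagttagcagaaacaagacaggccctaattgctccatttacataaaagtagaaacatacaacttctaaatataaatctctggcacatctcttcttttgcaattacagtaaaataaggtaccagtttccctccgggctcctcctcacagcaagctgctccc
Fstl3: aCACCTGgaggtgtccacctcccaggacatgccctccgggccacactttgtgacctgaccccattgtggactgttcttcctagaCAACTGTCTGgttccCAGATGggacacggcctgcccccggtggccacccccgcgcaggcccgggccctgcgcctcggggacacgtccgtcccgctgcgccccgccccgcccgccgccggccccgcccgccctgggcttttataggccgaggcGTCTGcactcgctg
The stretches lie on the plus strand of GRCm38.p6, at chr1:53061390-53061639 for Mstn, chr13:16011601-16011850 for Inhba and chr10:79777024-79777273 for Fstl3. Mstn held 4 E-boxes and 2 SMAD boxes, Fstl3 held 3 E-boxes and 2 SMAD boxes, and Inhba held 0 of either. Of 32851 promoters of the same length, 66.2% held at least 1 E-box and 42.2% at least 1 SMAD box. At least 3 E-boxes were found in 12.2% of promoters, at least 4 in 3.8%, and at least 2 SMAD boxes in 11.7%. Among the members not shown, Gdf11 and Acvr1b each held 1 E-box and 0 SMAD boxes. Acvr2a and Acvr2b each held 0 E-boxes and 1 SMAD box, and Fstl1 held 0 of either. A match describes letters in this window and not a bound site.

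Library totals ranged from 22209229 to 30218353 counts. A gene was called higher or lower where its adjusted p in edgeR was under 0.05. The myotube label was checked against Myog, Ckm, Myh3, Acta1, Tnnt3 and Ttn, which summed to 16580 to 18530 CPM (counts scaled to library size) in control. Of 8 listed myotube markers, only these 6 were among the genes measured. Adipoq, Ptprc and Hbb-bs, markers of fat, leukocytes and red cells, averaged at most 0.0279 CPM in any group. Other markers of fat and blood cells reached more, Fabp4 0.239 CPM and Cd68 5.73 CPM in single libraries. The highest group mean was in SFr for Fabp4 and in SFr_Dgal for Cd68. Myoblast markers were also present, with Myod1 at 194 to 231 CPM in the group means. In control, 4 myoblast markers summed to 641 to 666 CPM and cycling-cell markers to 162 to 170 CPM. In these bulk cultures, fewer cells of a type and less RNA per cell cannot be told apart. The 6 libraries of SFr and SFr_Dgal stood apart from the other 24 on the first principal component.

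Levels were first compared between members per kilobase of exon. Exons were merged over all annotated transcripts of a gene, and the order between genes depends on that length. Averaged over all libraries, Fstl1 stood highest at 199.9 CPM per kb, and the inhibitors Fst and Fstl3 were at 30.7 and 26.1 CPM per kb. Their order depended on the group: Fst over Fstl3, per kb, was 0.458 ± 0.025 in SFr, against 1.39 ± 0.15 in control, and 0.507 ± 0.046 in SFr_Dgal, against 1.14 ± 0.09 in Dgal (SD, n = 3 each). Among the ligands, Inhba was at 20.5 and Gdf11 at 17.1 CPM per kb, beside Tgfb1 at 19.9 and Inhbb, the activin B subunit, at 32.2 CPM per kb. The type I receptor Acvr1b was at 4.57 CPM per kb. The type II receptors were unequal, with Acvr2a at 10.7 and Acvr2b at 0.411 CPM per kb.

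**Figure D1:**
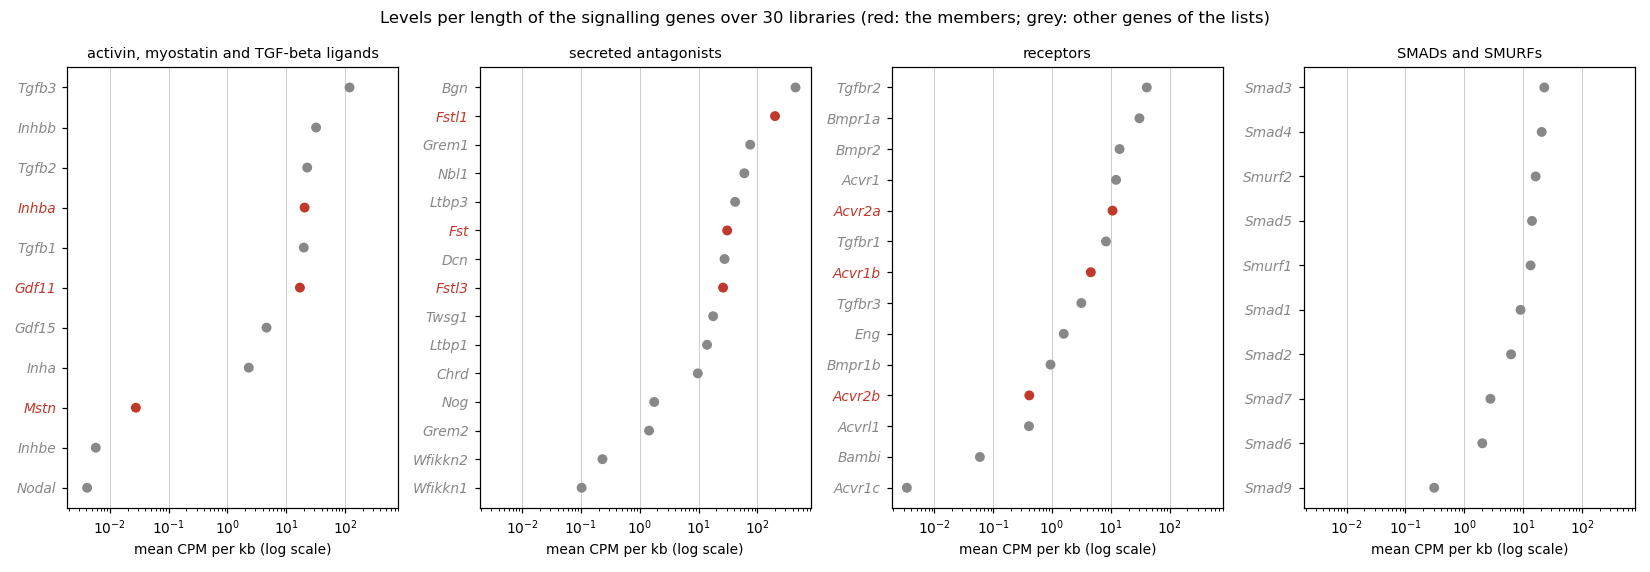
Mean level of each gene of 4 signalling lists over all 30 libraries, in CPM per kb of exon on a log scale, with the members in red and other genes in grey. Mstn lies at 0.0277 CPM per kb, far left of Gdf11 (17.1) and Inhba (20.5), and Acvr2b (0.411) lies left of Acvr2a (10.7).

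Mstn transcripts were at the limit of detection in all 10 groups. The gene, which lies at 53061640 to 53068079 on the plus strand of chromosome 1 (GRCm38), had 0 to 5 counts per library, 58 in all, and 0 in 5 libraries. The counts were 0, 0 and 1 in SFr_Dgal, 3, 5 and 1 in Rb2_Dgal, 1, 3 and 0 in Dgal, and 2, 3 and 2 in control. A count of 3 corresponded to 0.0978 to 0.134 CPM. Mstn did not pass the filter on low counts, and differences between groups were not tested.

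The saponin fraction was compared with vehicle to ask what it did to the axis by itself. Fst showed the largest difference of any member and any comparison here that has vehicle as its baseline. Fst had 36.1, 40.7 and 36.5 CPM in SFr, against 188, 171 and 161 CPM in control. All 3 SFr libraries lay below all 3 control libraries, with a 4.60-fold lower level (log2 fold change -2.20 ± 0.05 SE, edgeR adjusted p = 1.73e-26). Fst lies at 114452290 to 114458951 on the minus strand of chromosome 13. Its partner in inhibition, Fstl3, had 43.6, 44.5 and 43.5 CPM in SFr, against 66.7, 62.9 and 69.9 CPM in control, and fell by 0.60 ± 0.05 on the log2 scale (edgeR adjusted p = 8.2e-13). Fstl1 averaged 754 ± 21.7 CPM in SFr and 1071 ± 16.5 CPM in control (SD, n = 3 each).

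The ligands fell as well. Inhba had 86.4, 88.5 and 86.8 CPM in SFr, against 138, 142 and 138 CPM in control (log2 fold change -0.68 ± 0.04 SE, edgeR adjusted p = 3.26e-15). The groups did not overlap. Gdf11 had 59.6, 61.1 and 62.7 CPM in SFr, against 70.9, 75.2 and 72.2 CPM in control, a smaller fall of 0.25 ± 0.05 on the log2 scale (edgeR adjusted p = 6.18e-05). The receptors did not pass the test. Acvr2a averaged 66.2 ± 3.80 CPM in SFr and 67.5 ± 2.63 CPM in control, with a 95% interval of the log2 fold change from -0.11 to 0.06, and that of Acvr1b ran from -0.09 to 0.19. Acvr2b, with 27 to 64 counts per library, had an interval from -0.62 to 0.08.

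In all, 5 of the 8 tested members were lower and 0 higher in SFr than in control, with 43.1% of all tested genes called, 21.3% higher and 21.8% lower. The members' median log2 fold change was -0.39, beside 0.00 over all tested genes, and the median size of a change over all genes was 0.15. Myotube markers moved in the same comparison. Of 6 measured, 5 fell and 0 rose, and their sum was 11460 to 12500 CPM in SFr, against 16580 to 18530 CPM in control. All 5 cycling-cell markers fell, to a sum of 64.7 to 74.8 CPM in SFr, against 162 to 170 CPM in control. The 4 myoblast markers summed to 488 to 516 CPM in SFr, against 641 to 666 CPM in control. Cd68, a macrophage marker, averaged 3.35 CPM in SFr and 0.740 CPM in control, while Ptprc averaged 0.0246 CPM in SFr and 0 in control. The part of these marker changes in the members' levels was not tested.

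**Figure D2:**
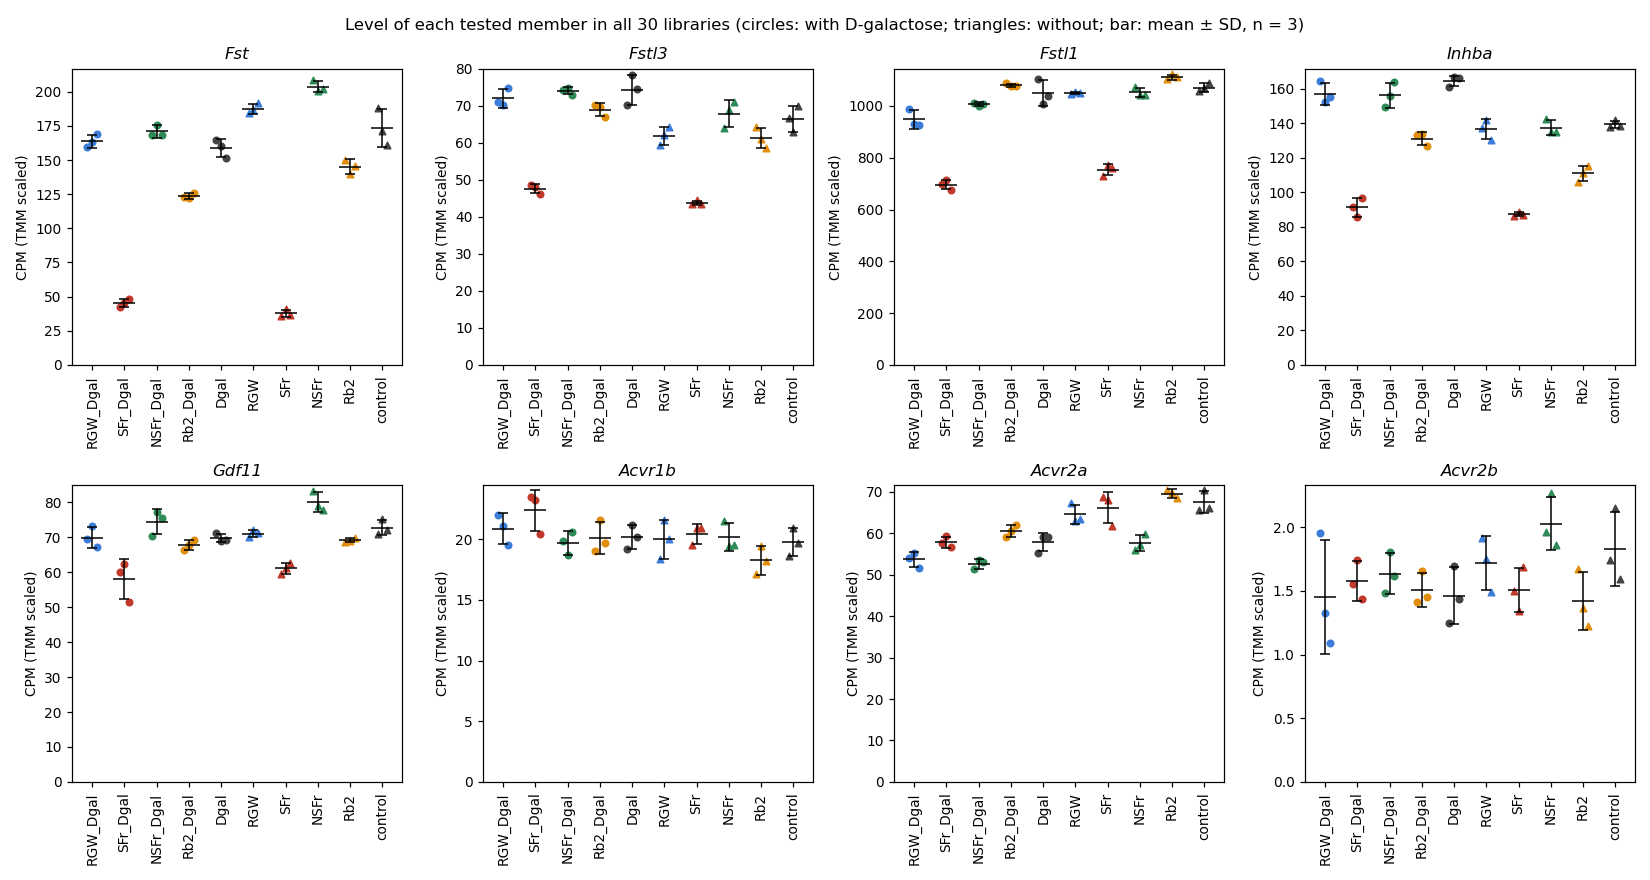
Level of the 8 tested members in each library, in CPM on linear axes from 0, with circles for groups given D-galactose, triangles for groups without it, and bars for the mean ± SD (n = 3). Fst, Fstl3, Fstl1 and Inhba are lowest in SFr_Dgal and SFr, with Fst at 42.3 to 48.1 CPM in SFr_Dgal and 36.1 to 40.7 CPM in SFr.

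With D-galactose the saponin fraction gave a similar list. SFr_Dgal was set against Dgal, which shares no library with the comparison above. By the labels, SFr_Dgal had the fraction for 12 h and then D-galactose for 24 h, and Dgal had only the 24 h. SFr was labelled with 12 h, so labelled times also differ from those of the comparison above. Fst had 42.3, 45.4 and 48.1 CPM in SFr_Dgal, against 164, 160 and 152 CPM in Dgal, and was 3.5-fold lower (log2 fold change -1.81 ± 0.05 SE, edgeR adjusted p = 2.97e-24). Inhba had 91.5, 85.7 and 96.4 CPM in SFr_Dgal, against 161, 167 and 166 CPM in Dgal (-0.85 ± 0.04, edgeR adjusted p = 8.62e-18). Both sets of libraries were fully separated. Fstl1 fell by 0.59 ± 0.03, Fstl3 by 0.64 ± 0.05 and Gdf11 by 0.27 ± 0.05 on the log2 scale. Thus 5 of 8 tested members were lower and 0 higher, with 41.3% of all tested genes called, 20.3% higher and 21% lower. Gdf11 in SFr_Dgal spread from 51.5 to 62.3 CPM. Acvr1b (0.15 ± 0.07) and Acvr2a (0.00 ± 0.04) were not called on the log2 scale. Of the 6 myotube markers 3 fell and 0 rose, with sums of 13010 to 14050 CPM in SFr_Dgal, against 15110 to 15920 CPM in Dgal. The 5 cycling-cell markers fell too, with sums of 39.4 to 42.9 CPM in SFr_Dgal, against 72.0 to 79.7 CPM in Dgal. The 4 myoblast markers summed to 474 to 480 CPM in SFr_Dgal, against 649 to 687 CPM in Dgal. Cd68 averaged 5.61 CPM in SFr_Dgal and 1.85 CPM in Dgal. Their part in the members' levels was not tested. Acvr1b was called in this comparison when SFr_Dgal replicate 3 was left out (0.21, adjusted p = 0.0198) and when library totals replaced TMM scaling (0.18, adjusted p = 0.0357).

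**Figure D3:**
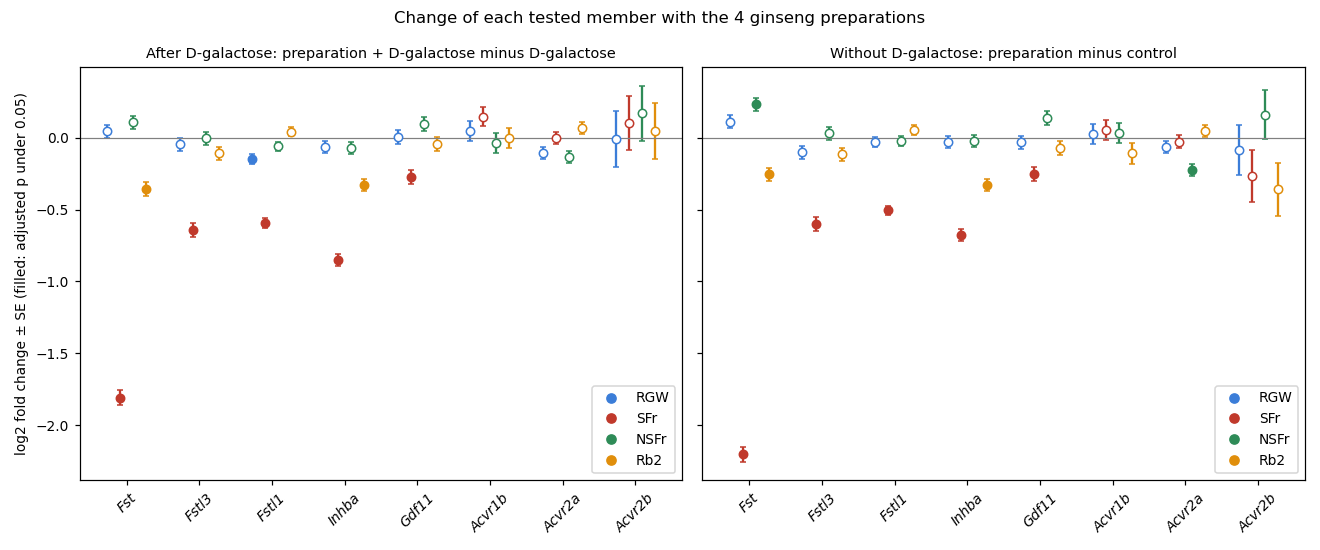
Log2 fold change ± SE of each tested member with each preparation, against Dgal on the left and against control on the right, with filled points for adjusted p under 0.05. SFr points for Fst lie at -1.81 and -2.20, and the points of RGW and NSFr lie between -0.23 and 0.23.

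The saponin and non-saponin fractions were given at the same dose and time and could be compared directly. Fst had 36.1, 40.7 and 36.5 CPM in SFr, against 208, 201 and 202 CPM in NSFr, the lowest and the highest of all 10 groups. The difference was -2.43 ± 0.05 on the log2 scale (edgeR adjusted p = 3.3e-28). In this comparison 6 of 8 tested members were lower and 1 higher in SFr, with 40.4% of all tested genes called, 20.8% higher and 19.6% lower. The higher one was Acvr2a, with 68.7, 68.1 and 61.9 CPM in SFr, against 56.1, 57.2 and 59.9 CPM in NSFr (log2 fold change 0.20 ± 0.04, edgeR adjusted p = 0.000271). The lower ones included Acvr2b at -0.43 ± 0.17, a gene of 34 to 64 counts in these libraries, whose edgeR adjusted p was 0.0482. That call was lost in 7 of 12 alternatives, among them replicates 1 and 2 of SFr (adjusted p = 0.104 and 0.157) and of NSFr (0.0717 and 0.207), each left out singly. With D-galactose, 5 of 8 members were lower and 2 higher in SFr_Dgal than in NSFr_Dgal, beside 41% of all tested genes (20.7% higher and 20.3% lower), and Fst differed by -1.92 ± 0.05. The 2 higher ones were the receptors Acvr2a (0.13 ± 0.04, edgeR adjusted p = 0.0134) and Acvr1b (0.18 ± 0.07, edgeR adjusted p = 0.0298). The Acvr1b call was lost in 5 of 12 alternatives, among them replicates 1 and 2 of SFr_Dgal (adjusted p = 0.122 and 0.0905) and of NSFr_Dgal (0.0595 and 0.123), each left out singly. The Acvr2a call was lost without NSFr_Dgal replicate 1 (adjusted p = 0.0711).

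Markers of cell state moved in these comparisons of the fractions too. All 6 myotube markers were lower in SFr than in NSFr, with sums of 11460 to 12500 CPM in SFr, against 16140 to 16340 CPM in NSFr, and 3 of 6 were lower and 0 higher in SFr_Dgal than in NSFr_Dgal. All 5 cycling-cell markers were lower in both comparisons, with median log2 fold changes of -1.44 in SFr against NSFr and -1.61 in SFr_Dgal against NSFr_Dgal. The 4 myoblast markers summed to 488 to 516 CPM in SFr, against 643 to 667 CPM in NSFr. They summed to 474 to 480 CPM in SFr_Dgal, against 673 to 704 CPM in NSFr_Dgal. Cd68 was higher, by 2.19 ± 0.20 in SFr and 1.72 ± 0.15 in SFr_Dgal on the log2 scale. Their part in the members' levels was not tested.

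Inhba and Fst were also lower with ginsenoside Rb2, a comparison in which few genes of the table passed the test. Inhba had 106, 111 and 115 CPM in Rb2, against 138, 142 and 138 CPM in control (log2 fold change -0.33 ± 0.04, edgeR adjusted p = 3.64e-06). Fst had 150.1, 139.7 and 146 CPM in Rb2, against 188, 171 and 161 CPM in control (-0.26 ± 0.05, edgeR adjusted p = 0.000956). The groups did not overlap for either gene. These were 2 of 8 tested members, both lower, where 1.53% of all tested genes were called, 0.575% higher and 0.96% lower. In Rb2_Dgal, 2 of 8 members were lower and 0 higher than in Dgal, beside 2.26% of all tested genes (1.16% higher and 1.1% lower), and they were again Inhba and Fst. Inhba averaged 131 ± 3.91 CPM in Rb2_Dgal and 164 ± 3.08 CPM in Dgal (-0.33 ± 0.04, edgeR adjusted p = 5.84e-06; SD, n = 3 each). Fst averaged 124 ± 2.07 CPM in Rb2_Dgal and 159 ± 6.39 CPM in Dgal (-0.36 ± 0.05, edgeR adjusted p = 9.81e-06). The sum of cycling-cell markers was 103 to 112 CPM in Rb2_Dgal, against 72.0 to 79.7 CPM in Dgal, with 2 of 5 called higher. It was 168 to 191 CPM in Rb2, against 162 to 170 CPM in control. Myotube markers summed to 15330 to 16000 CPM in Rb2, against 16580 to 18530 CPM in control. In Rb2_Dgal they summed to 15160 to 15910 CPM, against 15110 to 15920 CPM in Dgal. The part of these markers in the members' levels was not tested. Rb2 at 20 µM and the fractions at 100 µg/mL are in different units, so their sizes were not compared.

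NSFr and RGW moved few members. In NSFr, Fst rose to 208, 201 and 202 CPM, against 188, 171 and 161 CPM in control (log2 fold change 0.23 ± 0.05, edgeR adjusted p = 0.0015). Acvr2a had 56.1, 57.2 and 59.9 CPM in NSFr, against 65.7, 70.5 and 66.2 CPM in control (-0.23 ± 0.04, edgeR adjusted p = 0.00104). These were 1 member higher and 1 lower of 8, with 8.08% of all tested genes called, 4.56% higher and 3.51% lower. Gdf11 was above every control library in NSFr, at 77.9 to 83.3 CPM against 70.9 to 75.2 CPM in control, but was not called (0.14 ± 0.05, edgeR adjusted p = 0.0657). It was called when library totals replaced TMM scaling (0.16, adjusted p = 0.034). In NSFr_Dgal against Dgal, 0 of 8 members passed edgeR's test, beside 6.33% of all tested genes (3.5% higher and 2.82% lower). There, Fst (0.11 ± 0.05) and Acvr2a (-0.14 ± 0.04) had unadjusted p of 0.0285 and 0.00431, and DESeq2 also called 0 members. Without Dgal replicate 1, Acvr2a was called there (-0.16, adjusted p = 0.0374). Cycling-cell markers summed to 98.7 to 115 CPM in NSFr_Dgal, against 72.0 to 79.7 CPM in Dgal. They summed to 161 to 189 CPM in NSFr, against 162 to 170 CPM in control. Myotube markers summed to 16140 to 16340 CPM in NSFr, against 16580 to 18530 CPM in control. The part of these markers in the members' levels was not tested.

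In RGW, 0 of 8 members passed edgeR's test and 0 passed DESeq2's, where edgeR called 3.21% of all tested genes, 2.04% higher and 1.17% lower. Fst (0.11 ± 0.05) and Fstl3 (-0.10 ± 0.05) had unadjusted p of 0.0211 and 0.0332. Without control replicate 1, the control library with the most Fst, the Fst difference was 0.18 and was called (adjusted p = 0.0365). In RGW_Dgal, 1 of 8 members was called, beside 5.06% of all tested genes (2.52% higher and 2.54% lower). It was Fstl1, with 989, 930 and 925 CPM in RGW_Dgal, against 1103, 1008 and 1039 CPM in Dgal (-0.15 ± 0.03, edgeR adjusted p = 0.00455). In a fit of these 2 groups alone its adjusted p was 0.075. Cycling-cell markers summed to 108 to 142 CPM in RGW, against 162 to 170 CPM in control. They summed to 75.4 to 88.8 CPM in RGW_Dgal, against 72.0 to 79.7 CPM in Dgal. The part of these markers in the members' levels was not tested.

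D-galactose without a preparation moved the ligand Inhba upward and the receptor Acvr2a downward. Inhba had 161, 167 and 166 CPM in Dgal, against 138, 142 and 138 CPM in control (log2 fold change 0.24 ± 0.04, edgeR adjusted p = 5.06e-05). Acvr2a had 55.3, 59.2 and 59.1 CPM in Dgal, against 65.7, 70.5 and 66.2 CPM in control (-0.22 ± 0.04, edgeR adjusted p = 0.00025). Neither gene's groups overlapped. Fstl3 had 70.3, 78.3 and 74.5 CPM in Dgal, against 66.7, 62.9 and 69.9 CPM in control (0.16 ± 0.05, edgeR adjusted p = 0.00885), and its call was lost without control replicate 2 (adjusted p = 0.0729) or Dgal replicate 2 (adjusted p = 0.0776). Fst, with 164, 160 and 152 CPM in Dgal, against 188, 171 and 161 CPM in control, was called lower (-0.13 ± 0.05, edgeR adjusted p = 0.0403) although its groups overlapped. That call was lost in 8 of 12 alternatives, and without control replicate 1 the difference was -0.06 (adjusted p = 0.409). So 2 of 8 members were called higher and 2 lower, with 25.1% of all tested genes called, 11.9% higher and 13.1% lower. The sum of the 5 cycling-cell markers, all of which fell, was 72.0 to 79.7 CPM in Dgal, against 162 to 170 CPM in control. Myotube markers summed to 15110 to 15920 CPM in Dgal, against 16580 to 18530 CPM in control. Cd68 averaged 1.85 CPM in Dgal and 0.740 CPM in control and was called higher (1.34 ± 0.24). The mitochondrial share of counts was 1.32 to 1.68% in Dgal, against 0.727 to 1.14% in control. The part of these changes in the members' levels was not tested.

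The D-galactose response was then read after each preparation, against the same preparation alone. Preparations alone were labelled with 12 h and the combined groups with 12 h followed by 24 h, so that D-galactose and the added time cannot be told apart here. Acvr2a was lower with D-galactose in all 5 settings, with log2 fold changes from -0.27 after RGW to -0.13 after NSFr. The value after NSFr (edgeR adjusted p = 0.0447) was lost in 7 of 12 alternatives. Inhba was higher after RGW (0.20 ± 0.04), NSFr (0.19 ± 0.04), Rb2 (0.24 ± 0.04) and vehicle (0.24 ± 0.04). After SFr, Inhba had 91.5, 85.7 and 96.4 CPM in SFr_Dgal, against 86.4, 88.5 and 86.8 CPM in SFr, which was not called (0.07 ± 0.04, edgeR adjusted p = 0.311). The difference between the Inhba response after SFr and after vehicle was -0.17 ± 0.06 (edgeR adjusted p = 0.175), so that the responses were not shown to differ. After RGW, 2 members were called higher and 3 lower, with 15.2% of all tested genes called (6.3% higher and 8.93% lower). After SFr, 1 was higher and 2 lower, with 19% of all tested genes called (8.46% and 10.5%). After NSFr, 1 was higher and 2 lower, with 12.7% called (5.76% and 6.98%), and after Rb2, 2 were higher and 2 lower, with 21% called (9.81% and 11.2%). Of these calls, Fstl1 after SFr (-0.12 ± 0.03, edgeR adjusted p = 0.0095) was lost without SFr replicate 2 (adjusted p = 0.0726), without SFr_Dgal replicate 3 (0.0647) and in a fit of those 2 groups alone (0.101). Fstl3 after Rb2 (0.17 ± 0.05, edgeR adjusted p = 0.00772) was lost without Rb2 replicate 3 (adjusted p = 0.0591). Cycling-cell markers were lower in each setting, 5 of 5 after RGW, NSFr and Rb2 and 4 of 5 after SFr, with median log2 fold changes from -0.91 after SFr to -0.71 after NSFr. Cd68 was called higher in each, by 0.74 after SFr to 1.21 after NSFr, and the part of these markers in the members' levels was not tested.

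Fst was the member whose D-galactose response, read with the same limit of added time, differed with a preparation. It had 42.3, 45.4 and 48.1 CPM in SFr_Dgal, against 36.1, 40.7 and 36.5 CPM in SFr, a rise of 0.27 ± 0.05 on the log2 scale (edgeR adjusted p = 0.000485). It fell by 0.19 ± 0.05 after RGW, by 0.25 ± 0.05 after NSFr and by 0.23 ± 0.05 after Rb2, with edgeR adjusted p of 0.00327, 0.000206 and 0.000494. The response after SFr exceeded that after vehicle by 0.39 ± 0.07 (interaction term, edgeR adjusted p = 0.00311). It was the 1 member of 8 called in that test, where 0.583% of all tested genes were called, 0.213% higher and 0.369% lower. In a fit of only these 4 groups the difference was 0.40 with an adjusted p of 0.11. Across the 10 groups, the Fst means ran from NSFr (204 CPM) through RGW (188), control (173), NSFr_Dgal (171), RGW_Dgal (164), Dgal (159), Rb2 (145), Rb2_Dgal (124) and SFr_Dgal (45.3) to SFr (37.7). The libraries of neighbours overlapped from RGW down to Dgal and were separate elsewhere in that order. For each of the other preparations the same test called 0 of 8 members in edgeR and 0 in DESeq2, with 1 member at an unadjusted p under 0.05 after RGW, 0 after NSFr and 0 after Rb2. The edgeR adjusted p of Fst there was 0.796 after RGW, 0.729 after NSFr and 0.96 after Rb2.

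**Figure D4:**
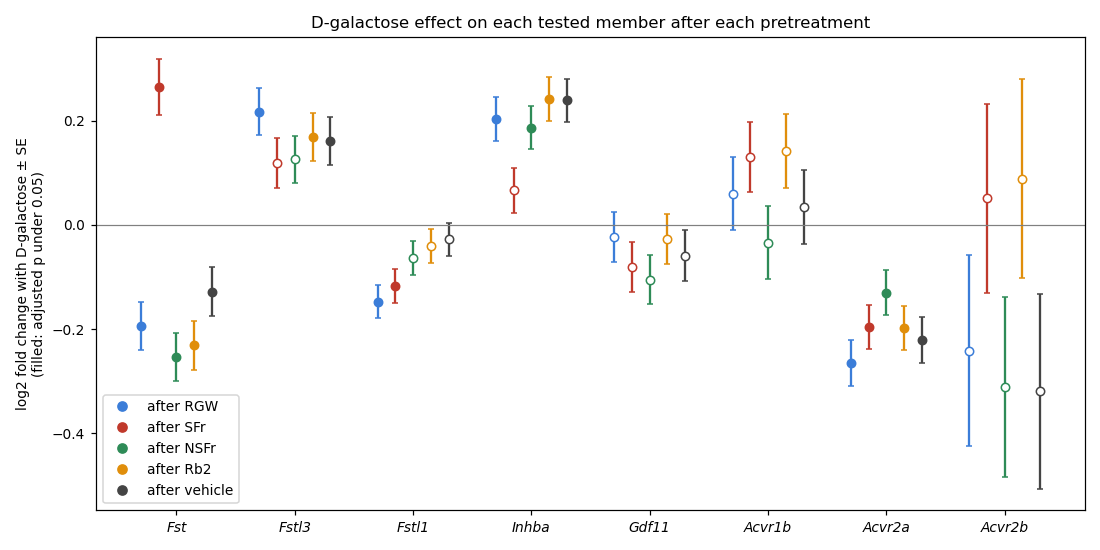
Log2 fold change ± SE of each tested member with D-galactose after each preparation and after vehicle, with filled points for adjusted p under 0.05. Fst lies at 0.27 after SFr and between -0.25 and -0.13 in the other 4 settings, while all 5 points of Acvr2a lie below 0. Groups given a preparation and then D-galactose were also labelled with 24 h more than the preparation alone.

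Because Fst fell further than Inhba, the ratio of their levels per kilobase was described for each library. Inhba over Fst was 1.45 ± 0.10 in SFr_Dgal and 0.745 ± 0.041 in Dgal, and 1.66 ± 0.09 in SFr and 0.580 ± 0.047 in control (SD, n = 3 each). The lowest of the 6 libraries of SFr_Dgal and SFr was 1.35, and the highest of the other 24 was 0.787. Gdf11 over Fst likewise was 1.45 ± 0.22 in SFr_Dgal and 0.497 ± 0.017 in Dgal, and 1.84 ± 0.13 in SFr and 0.477 ± 0.044 in control. These are ratios of transcript levels, and protein was not measured. Where they lie relative to 1 depends on the merged exon lengths used, 4589 bases for Fst and 6390 for Inhba. Lengths of the expressed transcripts were not used.

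**Figure D5:**
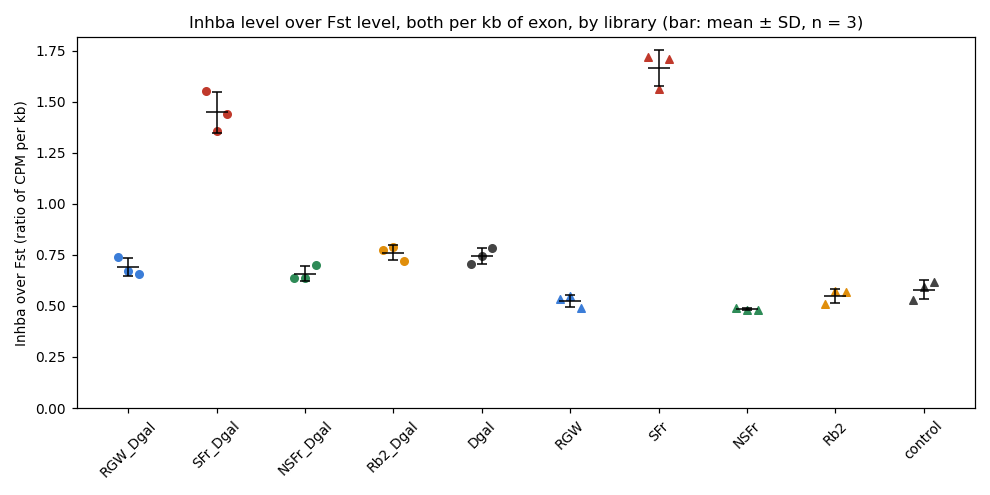
Ratio of the Inhba level to the Fst level, each in CPM per kb, in every library, on a linear axis from 0, with bars for the mean ± SD (n = 3). SFr_Dgal (1.35 to 1.55) and SFr (1.56 to 1.72) lie above 1 and all other groups lie below 1. The place of 1 on this axis depends on the merged exon lengths used.

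Likeness between the members' group means depended in part on the saponin fraction groups. Over the 10 group means of log2 CPM, Pearson's r was 0.90 between Fst and Fstl1, 0.90 between Fst and Fstl3, 0.91 between Fst and Gdf11 and 0.96 between Fstl3 and Inhba. Over the 8 group means without SFr and SFr_Dgal, these were -0.28, -0.06, 0.81 and 0.86, in the same order of pairs. The 5 genes most like Fst among 9650 candidates were Mef2c, a muscle transcription factor (r = 0.99), Fbxw7, a substrate adaptor of a ubiquitin ligase (0.99), Rftn2 (0.99), Adamtsl2, a secreted matrix protein (0.99), and Smim5 (0.99). Without the SFr groups their r was 0.90, 0.96, 0.93, 0.88 and 0.90, in the order given. All points share the same libraries, and the values describe the pattern only. Of these genes, Adamtsl2 had the difference nearest to that of Fst, at -2.15 in SFr against control and -1.98 in SFr_Dgal against Dgal on the log2 scale.

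Other genes of the pathway were read in the same comparison of SFr with control, where 43.1% of all tested genes were called (21.3% higher and 21.8% lower). Of 14 tested secreted antagonists, members included, 5 were higher and 7 lower in SFr than in control (median log2 fold change -0.18). Grem1, an inhibitor of bone morphogenetic proteins, averaged 695 ± 26.6 CPM in SFr and 186 ± 6.94 CPM in control (1.90 ± 0.05), and Dcn, the proteoglycan decorin, 303 ± 10.4 CPM in SFr and 121 ± 5.52 CPM in control (1.32 ± 0.04). Both rose while Fst fell. Of 8 tested ligands, members included, 1 was higher and 4 lower, with the members Inhba and Gdf11 among the lower. The higher was Inhbb, at 176 ± 4.32 CPM in SFr and 110.5 ± 4.19 CPM in control (0.67 ± 0.04), opposite to Inhba, and the lower ones included Tgfb3 (-0.53 ± 0.03) and Tgfb2 (-0.57 ± 0.04). Inhbb was also higher in SFr_Dgal than in Dgal (0.48 ± 0.04) and in NSFr (0.28 ± 0.04) and RGW (0.25 ± 0.04) than in control, and lower in Rb2 than in control (-0.23 ± 0.04).

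Beside the same 43.1% of all tested genes, 2 of 13 tested receptors, members included, were higher and 4 lower in SFr than in control. Among those called were the TGF-beta receptors Tgfbr1 (0.28 ± 0.05) and Tgfbr2 (-0.52 ± 0.04). Of 10 SMAD and SMURF genes 3 were higher and 3 lower, with Smad3, which carries the activin signal, at 95.3 ± 3.83 CPM in SFr and 140 ± 7.62 CPM in control (-0.55 ± 0.04). Of 9 tested target genes of Smad2 and Smad3, 1 was higher and 5 lower (median -0.24), led by Tagln, a cytoskeletal gene, at -1.54 ± 0.06, and Col1a1, a collagen chain, at -0.90 ± 0.10. Of 9 targets of the bone morphogenetic branch 3 were higher and 1 lower, with Id3, an inhibitor of DNA binding, at 0.59 ± 0.07 and the Notch and BMP target Hey1 at -1.63 ± 0.13. The shares of the receptors and of the bone morphogenetic targets that were called lay near that of all genes. In Dgal against control, 1 of these 9 Smad2 and Smad3 targets was higher and 0 lower, and it was Tagln (0.47 ± 0.06), a share below the 25.1% of all tested genes called there. Many of these genes answer other signals as well, and the changes in myotube, cycling-cell and Cd68 levels given above moved with the same groups.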

How the data were processed

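The labels' protocols give poly(A) selection, a directional MGIEasy kit and paired-end DNBSEQ sequencing. The deposited file holds the authors' expected counts, which come from RSEM 1.3.3 without normalization, per the submitters' processing notes. Those notes list the aligner STAR 2.7.9a, the read tools Trim Galore 0.6.10 and FastQC 0.11.9, and the builds GRCm38 and mm10. Neither an annotation nor a strand setting is named in the sources used here. The spans of Fst, Inhba and Acvr2b overlap those of the antisense genes Gm47040, Gm48444 and Gm47320. Whether reads from shared stretches were kept apart could therefore not be checked. Only whole gene spans were compared, and shared exon bases were not examined. The spans of Fstl3 and Prss57 (mean 0.331 CPM), and those of Acvr2a and Orc4 (mean 51.3 CPM), overlap as well.

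Expected counts were rounded, since 19.4% were not whole. All 30 libraries entered 1 group-means model in edgeR 4.0.16 (R 4.3.3), with TMM scaling, filterByExpr and the robust quasi-likelihood F-test. Calls needed a Benjamini-Hochberg adjusted p under 0.05 over 12184 genes. Standard errors were taken from the F statistic (the log2 fold change in absolute value over its square root), and 95% intervals span 1.96 of them on each side. CPM are counts per 1e+06 of the tested genes' total times the TMM factor, and CPM per kb divide by merged exon length in GENCODE vM21. The biological coefficient of variation, taken from edgeR's common dispersion over the tested genes, was 4.25%. Raw coefficients of variation of CPM over 3 libraries include counting noise and are not the same measure. In control they were 7.9% for Fst and 15.85% for Acvr2b, a gene of few counts. For Fst they ran from 1.67% in Rb2_Dgal to 7.9% in control. Replicate pairs, 30 in all, differed beyond sampling noise (chi-square per degree of freedom 2.48 to 13.7) and none was merged. Comparisons that share control, Dgal or SFr libraries are not independent.

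Members and lists were chosen with earlier results of these data known. All 9 members are named, as are up to 4 called genes of smallest adjusted p per list and the 5 genes most like Fst above a mean of 5 CPM. The r without SFr groups was added after values were seen. Alternatives were RLE scaling, library totals, no low-count filter, DESeq2 1.42.0, a replicate block, fits of only the compared groups, and omission of single libraries. SFr was also fitted against Rb2, but their doses have different units and that comparison is not reported. Of the Smad2 and Smad3 target genes, Ccn2 (also Ctgf) was not analysed here, and 1 further gene is not reported here and is left out of the list counts.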

Additional observations from a re-analysis of the deposited data

Results flagged for a closer look

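The response of 2 genes, Fst and Myh3, to D-galactose differed after the saponin fraction from that after vehicle, each by an interaction test in edgeR. SFr_Dgal was also labelled with 24 h more than SFr, so D-galactose and the added time cannot be told apart. Fst differed by 0.393 on the log2 scale (adjusted p = 0.00311): it was called higher in SFr_Dgal against SFr and lower in Dgal against control, where the call was lost in 8 of 12 alternatives. In a fit of only these 4 groups the Fst difference had an adjusted p of 0.11. Myh3, the embryonic myosin heavy chain gene, differed by 0.443 (adjusted p = 0.000124), with a log2 fold change of -0.18 ± 0.04 in SFr_Dgal against SFr and -0.63 ± 0.04 in Dgal against control.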

How the results depend on the processing

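Of 2208 member values recomputed under the alternatives, 2153 kept their side of the threshold, 36 lost a call, 15 gained one, and 0 called values changed sign. The other 4 were values of Acvr2b to which DESeq2 gave no adjusted p, among them RGW against control and NSFr_Dgal against Dgal. These totals include the comparisons of SFr with Rb2, without and with D-galactose, which are not reported. Of the gained calls, 5 and 3 came from them. With only the groups compared, the members called were 0 in RGW_Dgal against Dgal and 0 for the D-galactose effect after SFr against after vehicle, each beside 1 in the fit of all groups; the cause was not tested. With 1 library left out, members called ranged from 2 to 4 in Dgal against control (4 with all libraries), and from 0 to 1 in both RGW against control and NSFr_Dgal against Dgal (0 with all libraries). The count of 5 members in SFr against control was 5 under every library omission. With a replicate block, Fst in Dgal against control had an adjusted p of 0.0505 (log2 fold change -0.13), and the block changed no other call of a member in the comparisons reported. Replicate numbers share only a number: over 135 pairs of libraries with the same number in different groups, r of their deviations ran from -0.193 to 0.157, and 10 of 30 libraries correlated best with their own number.

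Counts over all tested genes depended more on the fit. With only the groups compared, they were 91 in RGW against control (391 in the fit of all groups), 508 in NSFr against control (984), 106 in Rb2 against control (187), 348 in RGW_Dgal against Dgal (617), 1154 in RGW_Dgal against RGW (1855) and 1466 in SFr_Dgal against SFr (2315). For the D-galactose effect after SFr against after vehicle, 13 genes were called with only the groups compared, 108 by DESeq2 and 37 to 140 with 1 library left out, beside 71. After NSFr the counts were 2, 16 and 0 to 12, beside 5, and 9 with no low-count filter. After RGW, edgeR called 0 genes (1153 at an unadjusted p under 0.05), DESeq2 21, library totals 4, no filter 3 and the replicate block 2, with 0 to 9 when 1 library was left out. With 1 library left out, the counts ranged from 196 to 348 in RGW against control, 592 to 861 in NSFr against control, 115 to 209 in Rb2 against control, 342 to 453 in RGW_Dgal against Dgal, 353 to 624 in NSFr_Dgal against Dgal (771 with all libraries), 126 to 227 in Rb2_Dgal against Dgal (275) and 1671 to 2124 in Rb2_Dgal against Rb2 (2562). Depth limits Mstn, at 0 to 5 counts per library, and Acvr2b, at 27 to 64.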
